A study of Chlamydomonas reinhardtii with 27 samples.

Results

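Photosystem I and its antenna are represented here by 3 genes of the 19267 in the count table of Chlamydomonas reinhardtii, chosen by identifier. CHLREDRAFT_130914 codes for reaction center subunit III of photosystem I, CHLREDRAFT_136294 for a light-harvesting protein of photosystem I, and CHLREDRAFT_187025 for a chlorophyll-a/b protein of the same antenna. The names are those that the paper lists, though its discussion gives the chlorophyll-a/b name to CHLREDRAFT_136294. The genes were chosen with earlier results of these libraries known, so their direction against control is a description. In the reference annotation the genes lie on 3 different chromosomes. Other genes of photosystem I are not described here, because the annotation used gave no gene symbols with which to find them.

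Photosystem I is the chlorophyll-protein complex of the thylakoid membrane that takes electrons from plastocyanin or cytochrome c6 on the lumenal side and passes them, with light energy, to ferredoxin on the stromal side. Subunit III, also called PsaF, is the small subunit on the lumenal side at which the electron donor docks, and in green algae it is encoded in the nucleus. The light-harvesting proteins of photosystem I form a belt of chlorophyll a- and b-binding proteins around the core and pass absorbed energy into it, and they too are encoded in the nucleus and imported into the chloroplast.

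The cells were wild-type strain GY-D55 of C. reinhardtii, a unicellular green alga, grown in BG-11 medium with a daily dark period and taken in mid-logarithmic growth. RNA of salt-treated cells was sequenced after NaCl was brought to 200 mM, at 2, 4, 8 and 12 h and again at 24, 48, 72 and 96 h, and RNA of control cells came from culture without NaCl, with 3 libraries in each of the 9 conditions. The control was a single group whose sampling time is not stated, so salt, culture age and time of day cannot be told apart in a comparison with it, and all 8 comparisons share the same 3 control libraries. The times 2, 4, 8, 12 and 24 h fall at different hours of the day if all cultures received NaCl at the same hour, which is not stated. A step between them may change time in salt and time of day together, and these cannot be told apart. NaCl went in with added medium, and whether the control received the same volume is not stated. The paper speaks of triplicates and the labels number them, but neither says that they were separate cultures. P-values therefore measure the spread between libraries, which may be technical. In bulk RNA, less of a transcript per cell and fewer cells that carry it cannot be told apart.

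The 27 libraries held between 15286332 and 24783139 counted reads, with a median of 18749997. Replicate 1 at 2 h and replicate 1 at 72 h were picked out after the data were seen, by the share of reads in the most counted genes. These libraries had counts in 14921 and 15274 genes, against 15571 to 17438 in the other 25 libraries. Without them, all 24 comparisons of the photosystem I genes with control kept direction and call, and the log2 fold changes moved by between -0.27 and 0.08. The lowest count of any library was 2014 for CHLREDRAFT_130914, 454 for CHLREDRAFT_136294 and 186 for CHLREDRAFT_187025, for which counting error alone is 2.23%, 4.69% and 7.33%. Levels are given as the deposited FPKM (fragments mapped to a gene, per length of its exons and per size of the library), which allow genes of different length to be compared.

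All 3 genes fell sharply within 2 h of salt, stayed at 1.23% to 7.58% of control through 8 h, rose steeply between 8 and 12 h, and at 96 h were still at 20.2% to 29.9% of control. Each was called lower at all 8 times (edgeR quasi-likelihood test, adjusted P below 0.05, any fold change), 24 of 24 comparisons. Among all 16443 genes tested, 30.8%, 28.6% and 28.3% were called lower at 2, 4 and 8 h, 24.5%, 24% and 24.3% at 12, 24 and 48 h, and 26.6% and 26% at 72 and 96 h, and 10.4% were called lower at every time. For each gene every one of the 24 salt libraries lay below every control library, a separation that 12.7% of all genes showed in that direction.

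In control cells the 3 genes were among the most abundant transcripts. CHLREDRAFT_130914 ranked 101st to 102nd of all genes by FPKM in the control libraries, CHLREDRAFT_136294 ranked 109th to 116th and CHLREDRAFT_187025 ranked 160th to 187th. Their reads together were 0.466% ± 0.0552 (SD, n = 3) of all counted reads in control libraries. After 2 h of salt the share was 0.0172% ± 0.00244, after 8 h 0.0304% ± 0.00191, after 12 h 0.0930% ± 0.00893 and after 96 h 0.177% ± 0.00981 (SD, n = 3 each).

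**Figure D1:**
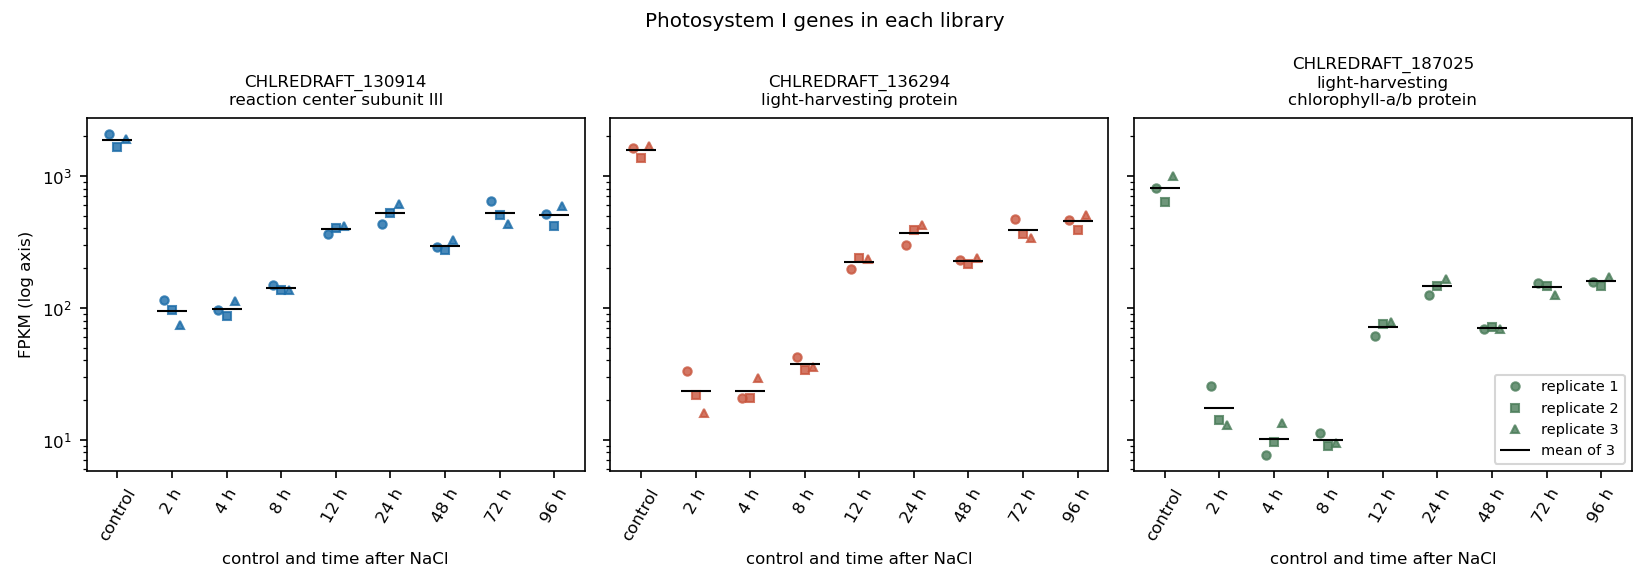
FPKM on a log axis in each of the 27 libraries for the 3 photosystem I genes, with control at the left and then the time after NaCl in equal steps (not to scale). Marker shapes give the replicate number and black bars the mean of 3, and all 24 salt libraries lie below the 3 control libraries in each panel.

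CHLREDRAFT_130914, the reaction center subunit, had 114, 95.6 and 74.3 FPKM at 2 h, 95.6, 86.8 and 112 FPKM at 4 h, and 149, 137 and 136 FPKM at 8 h, against 2092, 1653 and 1903 FPKM in control libraries. At 2 and 4 h its libraries overlapped, and the lowest control library was 14.5 times the highest library of these times. Its level at 2 h was 5.11% of control (95% interval 3.88% to 6.73%), a log2 fold change of -4.29 ± 0.19 (SE, edgeR adjusted P = 3.17e-16). At 8 h the log2 fold change was -3.72 ± 0.19 (edgeR adjusted P = 2.25e-15). Of the 3 genes it kept the largest part of its control level through the first 8 h.

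CHLREDRAFT_136294, the light-harvesting protein gene, had 33.2, 21.7 and 15.9 FPKM at 2 h, 20.7, 20.7 and 29.3 FPKM at 4 h, and 42.6, 34.0 and 35.3 FPKM at 8 h, against 1640, 1368 and 1700 FPKM in control libraries. In FPKM the 2 h libraries spread widely, with replicate 1 at 2.09 times replicate 3, and enclosed the 4 h libraries, whereas as a share of counted reads replicate 1 was 1.26 times replicate 3. At 2 h the gene was at 1.52% of control (95% interval 1.08% to 2.14%), a log2 fold change of -6.04 ± 0.24 (SE, edgeR adjusted P = 3.87e-17). Only 70 of the 16443 genes had a lower log2 fold change at 2 h. By rank the gene was 2897th to 4872nd of all genes at 2 h.

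CHLREDRAFT_187025, the chlorophyll-a/b protein gene, had 25.6, 14.0 and 13.0 FPKM at 2 h, 7.61, 9.60 and 13.3 FPKM at 4 h, and 11.3, 8.96 and 9.46 FPKM at 8 h, against 814, 640.3 and 992 FPKM in control libraries. The 3 libraries at 8 h all lay below the 3 at 2 h in FPKM, a separation whose share among all genes was not computed. Its level was 2.17% of control at 2 h (95% interval 1.54% to 3.04%), 1.304% at 4 h (0.916% to 1.86%) and 1.23% at 8 h (0.865% to 1.76%). The log2 fold change at 8 h was -6.34 ± 0.25 (SE, edgeR adjusted P = 1.59e-17), and 53 of the 16443 genes had a lower one. In the 8 h libraries it ranked 6196th to 7248th of all genes.

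**Figure D2:**
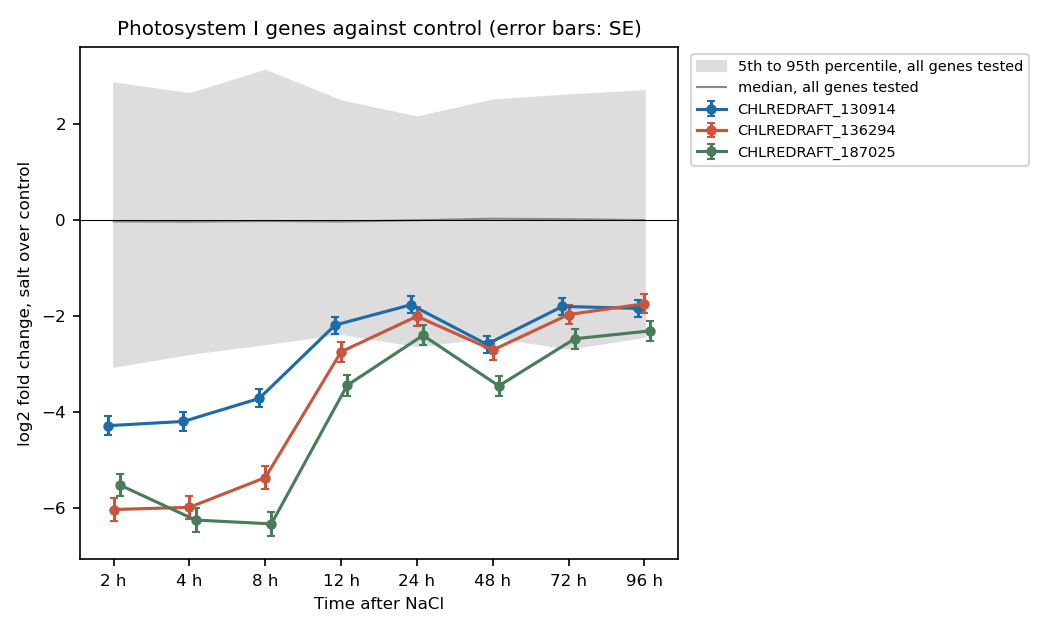
The log2 fold change of each salt time over control from edgeR, with SE bars, for the 3 photosystem I genes, beside the median and the 5th to 95th percentile of all 16443 genes tested. Times are in equal steps, and the 3 genes lie below the 5th percentile from 2 to 8 h and within the band at 24, 72 and 96 h.

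The early hours separated the 3 genes in the direction of change after the first fall. Set against 2 h, the 8 h level of CHLREDRAFT_130914 rose by 0.57 ± 0.17 (log2, SE, edgeR adjusted P = 0.00779) and CHLREDRAFT_136294 by 0.67 ± 0.20 (adjusted P = 0.00737). CHLREDRAFT_187025 fell over the same interval, with a log2 fold change of -0.81 ± 0.21 (edgeR adjusted P = 0.0023). Of all genes 22.3% were called higher and 22.7% lower between these times, and the comparison was added after the data were seen. Both rises were lost without replicate 3 of 2 h, the lowest 2 h library of both genes in FPKM, with log2 fold changes of 0.43 (adjusted P = 0.06) and 0.46 (adjusted P = 0.068). The fall of CHLREDRAFT_187025 was called without any one library, at -0.51 without replicate 1 of 2 h, but not when libraries were scaled by their totals (-0.45, adjusted P = 0.0547), an alternative added after the data were seen. With that scaling the rises were 0.89 for CHLREDRAFT_130914 and 1.02 for CHLREDRAFT_136294, and the median of all genes moved by 0.28.

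The steps within this interval were smaller and less firm. CHLREDRAFT_187025 was lower at 4 h than at 2 h by a log2 fold change of -0.73 ± 0.21 (edgeR adjusted P = 0.0205), where 6.26% of all genes were called lower. That call ended without replicate 1 of 2 h, the highest 2 h library of this gene (log2 fold change -0.38, adjusted P = 0.238), also without replicate 1 (-0.56) or replicate 2 (-0.69) of 4 h, and with scaling by totals (-0.54, adjusted P = 0.0787). The log2 fold change of 4 h over 2 h was 0.09 ± 0.17 for CHLREDRAFT_130914 and 0.05 ± 0.20 for CHLREDRAFT_136294, neither of them called. From 4 to 8 h, where 16.3% of all genes were called higher, CHLREDRAFT_130914 rose by 0.48 ± 0.17 (adjusted P = 0.0293) and CHLREDRAFT_136294 by 0.62 ± 0.20 (adjusted P = 0.0154), while CHLREDRAFT_187025 had a log2 fold change of -0.08 ± 0.21 (adjusted P = 0.807). The rise of CHLREDRAFT_136294 was no longer called without replicate 1 (0.53) or 2 (0.54) of 4 h or replicate 1 of 8 h (0.52). The rise of CHLREDRAFT_130914 was no longer called without any one of 10 libraries, with adjusted P between 0.053 and 0.125 and log2 fold changes between 0.40 and 0.51, namely replicates 2 and 3 of control, 1 and 2 of 4 h, all 3 of 8 h, 1 of 12 h, 2 of 24 h and 3 of 48 h.

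Of the steps between successive times, the largest log2 fold change upward of each of the 3 genes came between 8 and 12 h. The hour of the day may also differ between 8 and 12 h. CHLREDRAFT_130914 had 366, 401 and 419 FPKM at 12 h, 289% of its 8 h level (95% interval 226% to 369.8%), a log2 fold change of 1.53 ± 0.17 (edgeR adjusted P = 1.16e-07). CHLREDRAFT_136294 had 198, 241 and 233 FPKM at 12 h, with a log2 fold change of 2.63 ± 0.21 over 8 h (adjusted P = 1.73e-10). CHLREDRAFT_187025 had 61.2, 75.5 and 77.7 FPKM at 12 h, with a log2 fold change of 2.89 ± 0.22 over 8 h (adjusted P = 6.33e-11). No 12 h library overlapped an 8 h library in any of the 3 genes. The share of all genes separated in this way was not computed. By the edgeR test 15% of all genes were called higher in this step. The log2 fold change of this step was higher in 561 of the 16443 genes than in CHLREDRAFT_130914. It was higher in 144 than in CHLREDRAFT_136294 and in 115 than in CHLREDRAFT_187025.

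At 24 h the light-harvesting genes stood higher again. CHLREDRAFT_136294 had 297, 389.5 and 423 FPKM at 24 h, a log2 fold change of 0.74 ± 0.19 over 12 h (edgeR adjusted P = 0.00797), and CHLREDRAFT_187025 had 126, 148 and 164 FPKM, a log2 fold change of 1.04 ± 0.20 (adjusted P = 0.000395). Of all genes 8.93% were called higher. For CHLREDRAFT_136294 the call ended without replicate 1 of 12 h (0.66) or replicate 3 of 24 h (0.63). CHLREDRAFT_130914 had 432, 527 and 616 FPKM at 24 h, which did not pass the test over 12 h (log2 fold change 0.42 ± 0.17, adjusted P = 0.0828), and did without replicate 1 of 24 h (0.55, adjusted P = 0.0379).

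The rise was interrupted at 48 h. The times 24, 48, 72 and 96 h are whole days apart. These steps do not differ in clock time if all cultures received NaCl at the same hour, which is not stated. CHLREDRAFT_130914 had 289, 273 and 328 FPKM at 48 h, against 432, 527 and 616 FPKM at 24 h, a log2 fold change of -0.82 ± 0.17 (edgeR adjusted P = 0.00116). CHLREDRAFT_136294 had 230, 215 and 237 FPKM at 48 h, with a log2 fold change of -0.70 ± 0.19 to 24 h (adjusted P = 0.0141). CHLREDRAFT_187025 had 69.5, 71.9 and 69.4 FPKM at 48 h, with a log2 fold change of -1.06 ± 0.20 to 24 h (adjusted P = 0.000407). In each gene the 48 h libraries all lay below the 24 h libraries, and how many of all genes were separated in this way was not computed. By the edgeR test 7.46% of all genes were called lower in this step. The call for CHLREDRAFT_136294 ended without replicate 2 (-0.66) or 3 (-0.60) of 24 h or replicate 2 of 48 h (-0.67), and with scaling by totals (-0.39, adjusted P = 0.0566). With scaling by totals the fall was -0.52 for CHLREDRAFT_130914, and the median of all genes moved by 0.30.

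By 72 h all 3 genes had risen again, and none was told apart from its 24 h level (edgeR adjusted P of 0.842 to 0.924). CHLREDRAFT_130914 had 645, 507 and 433 FPKM at 72 h, a log2 fold change of 0.79 ± 0.17 over 48 h (edgeR adjusted P = 0.00894). CHLREDRAFT_136294 had 474, 362 and 338 FPKM, a log2 fold change of 0.74 ± 0.19 (adjusted P = 0.0332), and CHLREDRAFT_187025 had 155, 148 and 126 FPKM, a log2 fold change of 0.98 ± 0.20 (adjusted P = 0.00488). Of all genes 1.67% were called higher in this step. The call for CHLREDRAFT_130914 ended without replicate 1 of 48 h (0.77), replicate 2 of 48 h (0.74) or replicate 1 of 72 h (0.68). That for CHLREDRAFT_136294 ended without any one library of 48 h (0.75, 0.70 and 0.82 for replicates 1, 2 and 3) and without replicate 1 (0.64) or 2 (0.78) of 72 h, and with scaling by totals (0.50, adjusted P = 0.0802).

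Replicate 1 of 72 h was the highest of the 72 h libraries in FPKM for each of the 3 genes and the lowest as a share of counted reads. For CHLREDRAFT_130914 that share was 580.3, 695 and 668 CPM (counts scaled to the library's total) in replicates 1, 2 and 3. The deposited FPKM carry the authors' size factors, which are not proportional to the library totals, and the order of these 3 libraries therefore depends on the scale.

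At 96 h CHLREDRAFT_130914 had 513, 421 and 591 FPKM, CHLREDRAFT_136294 had 465, 390.0 and 505 FPKM, and CHLREDRAFT_187025 had 157, 147 and 173 FPKM. In none of the 3 genes was 96 h called different from 72 h or from 24 h by edgeR with TMM, and 0 of these 6 tests had an unadjusted P below 0.05. The log2 fold changes of 96 h over 24 h were -0.08 ± 0.17, 0.26 ± 0.19 and 0.09 ± 0.20 in that order of genes, which as percentages of the 24 h level leave 95% intervals of 74.6% to 121%, 91.1% to 158% and 80.7% to 141%. The comparison with 24 h depended on the scaling. With library totals in place of TMM, 96 h was called higher than 24 h in each gene, with log2 fold changes of 0.35 for CHLREDRAFT_130914, the opposite sign, 0.69 for CHLREDRAFT_136294 and 0.52 for CHLREDRAFT_187025 (edgeR adjusted P of 0.0329, 0.000593 and 0.0308), while the median of all genes moved by 0.42. With DESeq2, which uses median-of-ratios factors, no gene was called. As a share of counted reads CHLREDRAFT_136294 had 759.9, 725 and 789 CPM at 96 h, against 415, 506 and 489.6 CPM at 24 h. The 96 h libraries thus all lay above the 24 h libraries, and the share of all genes that did so was not computed. Against control, CHLREDRAFT_130914 was at 27.9% at 96 h (log2 fold change -1.84 ± 0.17), CHLREDRAFT_136294 at 29.9% (-1.74 ± 0.20) and CHLREDRAFT_187025 at 20.2% (-2.31 ± 0.21, SE). The highest salt library of any time was at 645, 505 and 173 FPKM, against 1653, 1368 and 640.3 FPKM in the lowest control library.

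Ordered by mean FPKM, each gene had control at the top. CHLREDRAFT_130914 averaged 528 ± 107, 525 ± 91.9 and 508 ± 85.2 FPKM at 72, 24 and 96 h, then 395 ± 27.05 and 297 ± 28.3 FPKM at 12 and 48 h, then 141 ± 7.19, 98.2 ± 12.8 and 94.6 ± 19.8 FPKM at 8, 4 and 2 h, against 1883 ± 221 in control (SD, n = 3 each). Neighbours in this order differed by the edgeR test between control and 72 h, between 48 and 8 h, and between 8 and 4 h, and the other 5 neighbouring pairs were not called. Of all genes 16.8% were called higher at 48 h than at 8 h. CHLREDRAFT_136294 had calls between neighbours at control and 96 h, 24 and 48 h, 12 and 8 h, and 8 and 4 h, and its means at 48 h (227 ± 11.1 FPKM) and 12 h (224 ± 23.0 FPKM) were not told apart. CHLREDRAFT_187025 had its lowest means at 8 h (9.91 ± 1.23 FPKM) and 4 h (10.2 ± 2.90 FPKM) and not at 2 h (17.5 ± 7.00 FPKM), with calls between control and 96 h, 72 and 12 h, 48 and 2 h, and 2 and 4 h. Of all genes 13.1% were called higher at 72 h than at 12 h and 23.7% higher at 48 h than at 2 h.

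Whether the genes changed by equal factors was read from the ratio of 2 genes within one library, which depends on no scaling between libraries. The FPKM of CHLREDRAFT_187025 was 17.9%, 10.2% and 7.01% of that of CHLREDRAFT_130914 at 2, 4 and 8 h, 18.02% and 27.9% at 12 and 24 h, and 23.7%, 27.3% and 31.5% at 48, 72 and 96 h, against 42.8% in control (geometric means, n = 3 each). In all 24 salt libraries it was lower than in all 3 control libraries (difference of mean log2 ratios -1.22, two-sided exact permutation P = 0.000684, the smallest that 24 against 3 libraries can give, adjusted P = 0.00137 over 4 such tests). Salt times are not replicates of each other, so that test asks only whether the control libraries lie apart.

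The ratio of CHLREDRAFT_136294 to CHLREDRAFT_130914 followed another course. It was 24.2%, 23.8% and 26.4% at 2, 4 and 8 h, then 56.5% and 70.4% at 12 and 24 h, and 76.8%, 74.2% and 89.5% at 48, 72 and 96 h, against 83.4% in control. At 48 and 96 h the salt libraries overlapped the control libraries. Over all 24 salt libraries the log2 ratio was lower by a difference of -0.78 (two-sided exact permutation P = 0.0403, adjusted P = 0.0538), which does not pass after adjustment, and without any one control library the exact P was 0.0554 to 0.172.

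Between the light-harvesting genes themselves the ratio moved first up and then down. The FPKM of CHLREDRAFT_187025 was 74.2%, 42.6% and 26.5% of that of CHLREDRAFT_136294 at 2, 4 and 8 h, 31.9% and 39.6% at 12 and 24 h, and 30.9%, 36.8% and 35.2% at 48, 72 and 96 h, against 51.4% in control. The 2 h libraries all lay above and the libraries of each later time all below the control libraries. With 3 libraries against 3 the smallest P of the exact permutation test is 0.1, and none of these tests passed (68 in the family, smallest adjusted P 0.131). Over all 24 salt libraries the difference of log2 ratios was -0.44 (exact permutation P = 0.131).

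**Figure D3:**
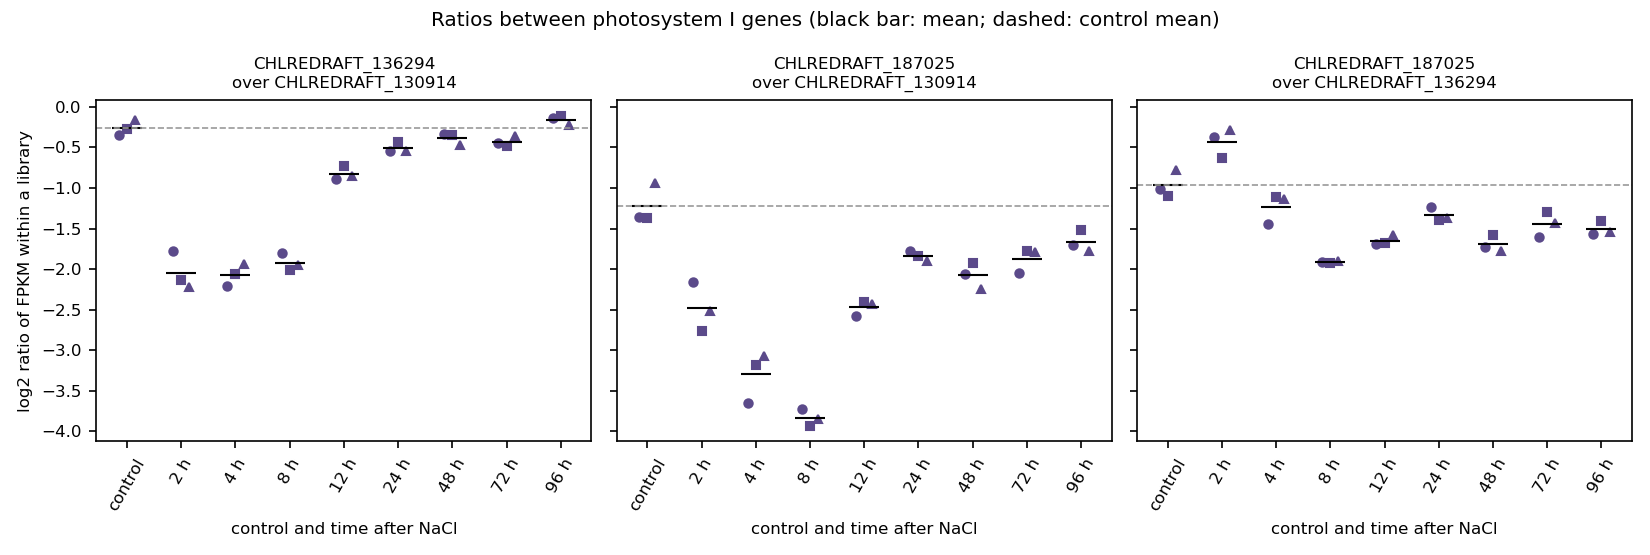
The log2 ratio of FPKM of 2 photosystem I genes within each library, for the 3 pairs of genes, with control at the left and then the time after NaCl in equal steps (not to scale). Marker shapes give the replicate, black bars the mean of 3 and the dashed line the control mean, and the ratio of CHLREDRAFT_187025 to CHLREDRAFT_130914 lies below control in all 24 salt libraries.

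Photosystem II, which splits water ahead of photosystem I in the electron transport chain, offers the nearest comparison, through 4 genes that the study names. The oxygen-evolving enhancer proteins 1, 2 and 3 (CHLREDRAFT_130316, CHLREDRAFT_33411 and CHLREDRAFT_153656) stabilise its manganese cluster, and CHLREDRAFT_112806 is named as a photosystem II stability or assembly factor. The 3 enhancer genes were called lower at all 8 times, with log2 fold changes of -4.21, -3.13 and -3.50 at 2 h, -4.68, -4.02 and -4.09 at 4 h, -3.66, -3.47 and -3.84 at 8 h and -1.39, -0.84 and -1.36 at 96 h. They too were lower at 48 h, with log2 fold changes of -1.13, -1.19 and -1.07 against 24 h, each called by edgeR. CHLREDRAFT_112806 was called lower from 2 to 24 h, at most by a log2 fold change of -1.47 at 8 h, and was not called from 48 to 96 h. It went the other way between 24 and 48 h, with a log2 fold change of 0.53 (edgeR adjusted P = 0.0498).

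As a group the photosystem I genes stood lower relative to the enhancer genes in salt than in control, though not each of them did at every time. CHLREDRAFT_130914 was at a log2 fold change of -4.20 at 4 h and -3.72 at 8 h, above enhancer 1 at 4 h (-4.68) and enhancer 3 at 8 h (-3.84), while both light-harvesting genes lay below all 3 enhancer genes at 2, 4 and 8 h. The geometric mean FPKM of the 3 photosystem I genes was 26.7%, 36.8% and 31.0% of that of the 3 enhancer genes at 2, 4 and 8 h, and 43.3% and 50.9% at 24 and 96 h, against 87.3% in control. The ratio was lower in all 24 salt libraries than in all 3 control libraries (difference of mean log2 ratios -1.10, two-sided exact permutation P = 0.000684, the smallest possible, adjusted P = 0.00137 over 4 tests). Salt times are not replicates of each other, so the test asks only whether the control libraries lie apart. How many other sets of genes would be separated in this way was not computed. This ratio was added after the data were seen, and the lists were chosen with results of these libraries known. The test is therefore a description and no independent support, and CHLREDRAFT_112806 was not among the genes of the ratio.

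**Figure D4:**
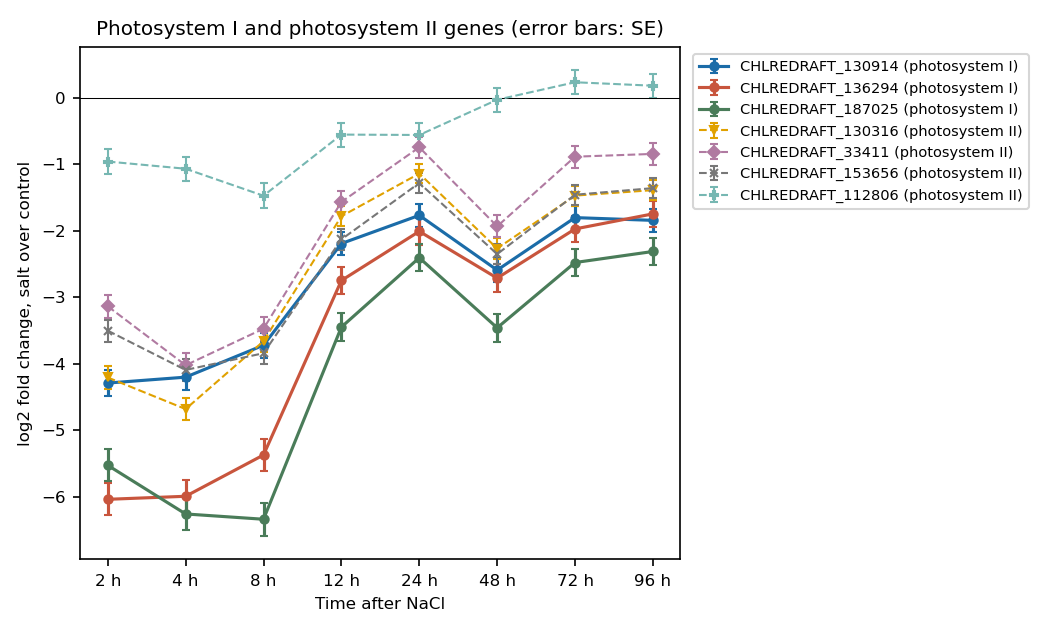
The log2 fold change of each salt time over control from edgeR, with SE bars, for the 3 photosystem I genes (solid lines) and the 4 named photosystem II genes (dashed lines). Times are in equal steps, and the light-harvesting genes lie lowest at 2 to 8 h, at -5.37 to -6.34, while CHLREDRAFT_112806 stays at -1.47 or above.

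Of the other photosynthesis genes that the study names, 7 with the 4 of photosystem II, 6 were called lower by edgeR at 2, 4 and 8 h, 5 at 12 and 24 h, and 4, 3 and 3 at 48, 72 and 96 h. Their median log2 fold change was -1.81 at 8 h and -0.30 at 96 h, beside -5.37 and -1.84 for the photosystem I genes and -0.02 and 0.00 for all genes tested. CHLREDRAFT_82986, the small subunit of Rubisco, which fixes CO2, was at a log2 fold change of -1.81 at 8 h and was not called at 72 or 96 h (0.06 and -0.30). None of the 7 was called higher from 2 to 12 h, and 1, 2, 2 and 1 were at 24, 48, 72 and 96 h. The share of all genes called higher than control is not given here, so these counts are only a description. The low-CO2-inducible gene CHLREDRAFT_148921 was called lower at 8 h (-1.31) and higher at 24, 48 and 72 h (0.49, 0.39 and 0.45). The low-CO2-inducible gene of the chloroplast envelope, CHLREDRAFT_189430, was called lower at 2, 4 and 24 h (-3.93, -2.79 and -1.64) and higher at 48, 72 and 96 h (0.78, 1.39 and 0.68), times at which the 3 photosystem I genes were called lower.

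Across the 9 condition means the 3 genes had closely similar profiles of log2 expression, with Pearson r of 0.984 between CHLREDRAFT_130914 and CHLREDRAFT_136294, 0.976 between CHLREDRAFT_130914 and CHLREDRAFT_187025, and 0.978 between the light-harvesting genes. The 9 points share libraries and scaling, and the large drop from control sets much of r, which is given as a description. Among the 10831 genes whose mean count was 100 or more, the gene most like CHLREDRAFT_130914 was CHLREDRAFT_192478 (r = 0.997). In the same set CHLREDRAFT_144609 was most like CHLREDRAFT_136294 (r = 0.996) and CHLREDRAFT_184471 most like CHLREDRAFT_187025 (r = 0.999). None of these genes in first place has a name in the sources used. The enhancer protein 1 gene CHLREDRAFT_130316 was in 4th place for CHLREDRAFT_136294 (r = 0.988), and the enhancer protein 3 gene CHLREDRAFT_153656 was in 5th place for CHLREDRAFT_187025 (r = 0.996). The lists of 5 genes most like each member held 14 different genes, with 1 shared between CHLREDRAFT_130914 and CHLREDRAFT_136294.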

How the data were processed

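Libraries of mRNA purified with poly-T beads were sequenced for 27 samples by the authors, who aligned the reads with HISAT2 2.0.5, assembled transcripts with StringTie 1.3.3b and counted reads per gene with featureCounts. The genome and annotation came from Ensembl Plants, and the assembly name, strandedness and treatment of multi-mapping reads are not given in the sources used here, so reads shared among related antenna genes could be split or lost. The deposited tables hold whole-number counts and FPKM, and the authors' FPKM matched a scaling by median-of-ratios size factors (largest difference 3.19e-10% over 6110 genes) and not by library totals (up to 52.0%).

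Counts were tested with edgeR 4.0.16 in R 4.3.3 (quasi-likelihood test, TMM, filterByExpr, 16443 of 19267 genes) in one fit of all 27 libraries with one term per condition, and P-values were adjusted by Benjamini-Hochberg over all genes tested. Genes were called at adjusted P below 0.05. The SE of a log2 fold change was derived from the test, as its absolute value divided by the square root of the quasi-likelihood F statistic. An interval is the log2 fold change with the 95% t interval from that SE, turned into a percentage. The method was tested on simulated data in which a small set of genes changed, equally up and down, in a single condition. That simulation does not test the scaling between libraries where many genes change. Alternatives were DESeq2 1.42.0, other size factors, library totals (added after seeing the data), filters, libraries and a replicate block. Ratios within a library were tested by exact permutation.

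The 3 genes are always named. Other genes come from those that the study names and from the 5 genes most correlated with each member. Gene lists by symbol could not be used, since 0 of 119 symbols matched the RefSeq annotation, which matched 12541 of 19267 identifiers and all 3 members. The members, lists and tests were chosen with earlier results of these data known. Replicates were not duplicates (chi-square per gene at least 6.61 in 27 pairs).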

Additional observations from a re-analysis of the deposited data

Results flagged for a closer look

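Salt times differed from each other by the edgeR quasi-likelihood test in 17 steps of the 3 photosystem I genes, each listed as a log2 fold change of the later over the earlier time. CHLREDRAFT_130914 had 0.57 from 2 to 8 h, 0.48 from 4 to 8 h, 1.53 from 8 to 12 h, -0.82 from 24 to 48 h and 0.79 from 48 to 72 h. CHLREDRAFT_136294 had 0.67, 0.62, 2.63, -0.70 and 0.74 in the same steps, and 0.74 from 12 to 24 h. CHLREDRAFT_187025 had -0.73 from 2 to 4 h, -0.81 from 2 to 8 h, 2.89 from 8 to 12 h, 1.04 from 12 to 24 h, -1.06 from 24 to 48 h and 0.98 from 48 to 72 h. The opposite direction of CHLREDRAFT_187025 between 2 and 8 h and the dip at 48 h are the values to look at first. CHLREDRAFT_132905, the study's reference gene for quantitative PCR, had -0.51 ± 0.29 from 24 to 48 h and 0.58 ± 0.29 from 48 to 72 h (SE), neither of them called. Against control it was called higher at 24 h (0.77) and 72 h (0.84) and was not called at the other times. At 8 h against 2 h the within-library ratio of CHLREDRAFT_187025 to CHLREDRAFT_130914 differed by -1.36 (log2) with no overlap of libraries, where the exact permutation P of 0.1 is the smallest that 3 against 3 can give.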

How the results depend on the processing

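All 864 alternative fits of the photosystem I genes against control kept direction and call. Between salt times 914 of 972 kept theirs, 52 lost the call, 5 gained it and 1 reversed. A fold threshold of 1 on the log2 scale removed the calls of CHLREDRAFT_130914 at 8 h against 2 h (0.57), 8 h against 4 h (0.48), 48 h against 24 h (-0.82) and 72 h against 48 h (0.79), of CHLREDRAFT_136294 at the same steps (0.67, 0.62, -0.70 and 0.74) and 24 h against 12 h (0.74), and of CHLREDRAFT_187025 at 4 h against 2 h (-0.73), 8 h against 2 h (-0.81) and 72 h against 48 h (0.98). With only the 6 libraries compared, the calls were lost at 72 h against 48 h for CHLREDRAFT_130914 (0.80, adjusted P = 0.111) and CHLREDRAFT_136294 (0.75, 0.103), at 8 h against 2 h for CHLREDRAFT_136294 (0.69, 0.0575) and at 4 h against 2 h for CHLREDRAFT_187025 (-0.72, 0.242), and gained at 24 h against 12 h for CHLREDRAFT_130914 (0.40, 0.025). Without replicate 1 of both 2 h and 72 h, chosen after seeing the data, that last step was called (0.42, adjusted P = 0.0314) and 4 h against 2 h of CHLREDRAFT_187025 was not (-0.38, 0.192). With library totals in place of TMM, also chosen after seeing the data, 96 h against 24 h was called for CHLREDRAFT_130914 with the sign reversed (0.35), CHLREDRAFT_136294 (0.69) and CHLREDRAFT_187025 (0.52), and calls were lost for CHLREDRAFT_136294 at 48 h against 24 h (-0.39) and 72 h against 48 h (0.50) and for CHLREDRAFT_187025 at 4 h against 2 h (-0.54) and 8 h against 2 h (-0.45). That scaling moved the median log2 fold change of all genes against control by 0.05 to 0.52. Leaving out each library in turn gave ranges of 0.43 to 0.67, 0.40 to 0.59, 0.29 to 0.55 and 0.68 to 0.92 for CHLREDRAFT_130914 at 8 h against 2 h, 8 h against 4 h, 24 h against 12 h and 72 h against 48 h. They were 0.46 to 0.93, 0.52 to 0.82, 0.63 to 0.87, -0.84 to -0.60 and 0.64 to 0.82 for CHLREDRAFT_136294 at 8 h against 2 h, 8 h against 4 h, 24 h against 12 h, 48 h against 24 h and 72 h against 48 h, and -0.98 to -0.38 for CHLREDRAFT_187025 at 4 h against 2 h. For the log2 ratio of CHLREDRAFT_136294 to CHLREDRAFT_130914, the difference of all salt libraries from control ranged from -0.82 to -0.73. The cause of these changes was not tested.

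Libraries with the same replicate number did not deviate together (r between -0.17 and 0.31 over 108 pairs of libraries, median -0.000345, 13 over 0.1, and 9 of 27 libraries correlated best with their own number). With a replicate block all 51 comparisons kept their call, as at 2 h against control (-4.28, -6.04 and -5.52).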
